A study of Mus musculus with 8 samples.

Results

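The comparison described here sets kidney cells collected 7 days after ischaemia-reperfusion injury (IRI) against cells collected 1 day after it, in mice that received vehicle (DMSO) and no drug. Male C57BL/6 mice underwent a 30 min clamp of the left renal pedicle with the other kidney left in place. Live cells from the injured kidneys of 3 mice per condition were pooled, enriched for leukocytes by sorting on scatter and profiled by split-pool single-cell RNA-seq. The series holds 120281 barcodes from 7 conditions, each 1 pool, and every condition runs through the same 8 sublibraries. Cells were taken by the condition recorded for each barcode (IRI_D1 or IRI_D7) and passed these limits: over 300 detected genes, a total below 20000 counts, and a mitochondrial share below 25%. This left 28599 cells, of which 22489 were from day 1 and 6110 from day 7. An uninjured control pool of 11205 cells is quoted only as a reference level.

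The sublibraries are technical splits of the same cells, so a spread over them is not a spread between mice, and no p-value is given. Median depth was 2722 counts per cell at day 1 and 2526.5 at day 7, with total counts of 77403258 and 21269083. Cell quality moved with the day. Of the day 1 barcodes 93.9% passed the limits and of the day 7 barcodes 47.1%, and the median mitochondrial share of the passing cells was 2.48% and 4.95%. By the paper's methods day 1 mice had no injection after the one before injury, whereas the treatment schedule continued daily for later time points. Whether the difference in quality or the selection of surviving cells had a part in any result below was not tested. Time after injury, number of injections, pool and quality cannot be told apart in this design.

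Ischaemia is followed by a wave of neutrophils and Ly6C-high monocytes that enter the kidney from blood. Neutrophils are short-lived granulocytes that carry preformed granule proteins and secrete interleukin 1 and chemokines. Monocytes can differentiate into macrophages that clear debris, and resident macrophages with high MHC class II persist beside them. Whether inflammation resolves or lasts in this subacute phase is linked to whether the kidney recovers or scars, which is why the shift between these time points is of interest.

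Each cell was assigned to a class by the markers it expressed. A cell joined the class with the largest detected share of its marker list when at least 3 of those markers were seen, and is called, for example, neutrophil-gated. Markers held back from the gate were detected more often in their own class than in any other for neutrophil, macrophage, T, NK, B, cDC1 and endothelial cells on both days. For classical monocytes and cDC2 another class exceeded them, so these 2 names rest on the gate markers alone. A second assignment by whole expression profile placed 89.1% of gated day 1 cells and 89.3% of gated day 7 cells in the same class.

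Neutrophil-gated cells were the most frequent class at day 1, and at day 7 neutrophil-gated and macrophage-gated cells had shares of like size with overlapping sublibrary ranges. Neutrophil-gated cells made up 35.7 to 38.8% of day 1 cells across sublibraries (median 37.3%) and 26.5 to 31.2% of day 7 cells (median 28.4%). These ranges did not overlap between days, and the pooled shares were 37.4% (95% exact binomial interval 36.8 to 38.1) and 28.5% (27.4 to 29.7). Macrophage-gated cells occupied 12.4 to 14.0% of cells at day 1 (median 12.9%) and 29.4 to 33.9% at day 7 (median 31.5%). Their pooled share was thus 2.44-fold larger, a log2 ratio of 1.29 ± 0.08 (SD over 8 sublibraries), against 35.4% in the uninjured pool. When the gate was applied to cells thinned to 500 counts, the log2 ratio was 0.45, so its size depended on the depth used for gating. These intervals cover counting error only.

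Both monocyte classes had lower shares at day 7. Classical monocyte-gated cells (Ly6c2 and Ccr2 type) fell from 19.4% to 5.89%, with sublibraries at 17.9 to 20.7% and 5.13 to 6.51%. The log2 ratio was -1.72 ± 0.12. Nonclassical monocyte-gated cells, which patrol vessel walls, went from 8.45% (7.76 to 9.12% by sublibrary) to 1.37% (0.665 to 2.01%), a log2 ratio of -2.62 ± 0.50. In both classes every day 7 sublibrary lay under every day 1 sublibrary. The size of the classical monocyte decline depended on the gate: the log2 ratio was -1.04 when cells were placed by profile, -2.32 when 1 more marker was required and -2.83 on cells thinned to 500 counts. At day 7 49.7% of classical and 66.7% of nonclassical monocyte-gated cells lay near the cut, against 24.3% and 35.2% at day 1.

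Dendritic and lymphoid classes gained share. The cDC1 class, which cross-presents antigen, rose from 0.60% to 2.32% (log2 ratio 1.95 ± 0.50), and cDC2 cells from 2.11% to 4.68% (1.15 ± 0.25). T cell-gated cells went from 1.46% to 2.95% (1.01 ± 0.46). For these 3 classes the 8 sublibraries of each day did not overlap. For B cells (2.33% and 2.85%), NK cells (0.574% and 0.982%) and Ccr7 dendritic cells (0.454% and 0.606%) they did. Endothelial-gated cells dropped from 5.77% to 3.5% (-0.72 ± 0.32) without overlap, far from the 20.6% of the uninjured pool, and tubule-gated cells were at 2.13% and 2.65% with overlapping sublibraries. Ungated cells made up 4.80% at day 1 and 9.77% at day 7 without overlap, and 69.2% and 15.9% of them had a tubule profile, so the tubule gate left out more such cells at day 1. As shares sum to 100% and the sort enriched leukocytes, a gain in one class cannot be told apart from a loss in another.

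**Figure D1:**
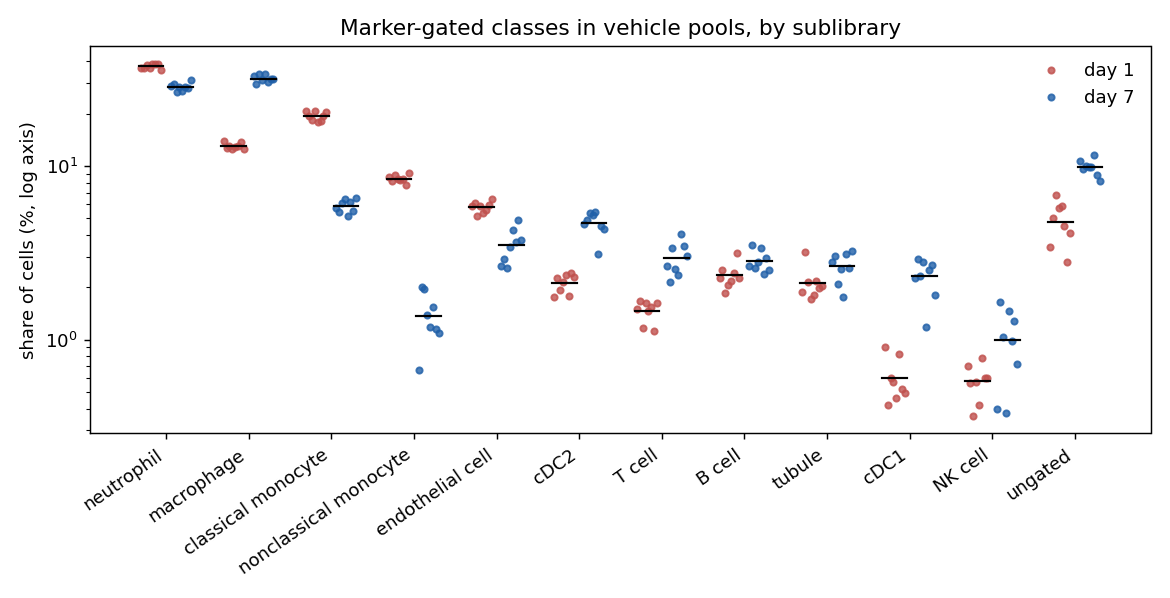
Share of cells (%, log axis) in each marker-gated class at day 1 (red) and day 7 (blue); each point is 1 of 8 sublibraries and the black bar their mean. Macrophage points sit at 29.4 to 33.9% at day 7 against 12.4 to 14.0% at day 1, while classical and nonclassical monocyte points are lower at day 7 in every sublibrary.

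Expression is given in CPM, the counts of a gene summed over the cells of a class, divided by all counts of those cells and scaled alike on both days, and as the log2 ratio of day 7 over day 1. A gene was called when its CPM differed at least 2-fold and in the same direction in all 8 sublibraries. Genes were filtered on the mean CPM of both days, so a gene that is low on one day can pass through the other. The filter was 20 CPM over all cells and 50 within a class. The limit holds for every named gene under it on 1 day, also where not marked. Examples are Mki67 and Top2a over all cells, Mreg and Fam20c in neutrophils, and Mmp12 and Inhba in classical monocytes. Over all cells 76 of 5987 tested genes were called higher (1.27%) and 418 lower (6.98%). The median gene had a log2 ratio of -0.33, so most ratios were shifted downwards. Ratios below are therefore stated as relative log2 ratios, which means the log2 ratio minus the median of all tested genes in that comparison. Called after this centring were 169 genes higher (2.82%) and 176 lower (2.94%), and the higher share of the calls went from 15.4% to 49.0%. "Rose" and "fell" are used only for genes called both ways.

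A small group of transcripts rose by like amounts in every class. Of 1603 genes tested in all 7 classes with enough cells, 7 were at least 2-fold higher in each class (Cdk8, Lars2, Gphn, Il31ra, Ccnb1ip1, Gm15564 and Scarna2), and 0 were at least 2-fold lower in each. Cdk8, annotated as a Mediator kinase (chr5:146231230-146302874, mm10), went from 4830 to 34313 CPM over all cells, with log2 ratios of 2.66 to 3.00 across the classes. Scarna2 is a small Cajal body RNA, and Ccnb1ip1 overlaps Rpph1, the RNA subunit of RNase P. The 2 overlapping genes are counted separately, with log2 ratios of 3.05 for Ccnb1ip1 and 2.95 for Rpph1 over all cells. Whether reads of one were counted for the other was not tested. Annotated genes also overlap Cdk8 (Gm15739), Il31ra (Gm3226), Gm15564 (Parp9 and Kpna1) and Gphn (6 genes). The annotation release used for counting is not given in the sources used here, so which transcripts were counted at these 7 genes was not checked. The 7 genes together took 1.66% of counts at day 1, 7.71% at day 7 and 3.41% in the uninjured pool. Mitochondrial genes took 3.34% and 6.17%. Both groups enlarge the total by which every other gene is divided. With these genes left out of the total, 121 genes were called higher and 292 lower, and the median log2 ratio was -0.18.

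**Figure D2:**
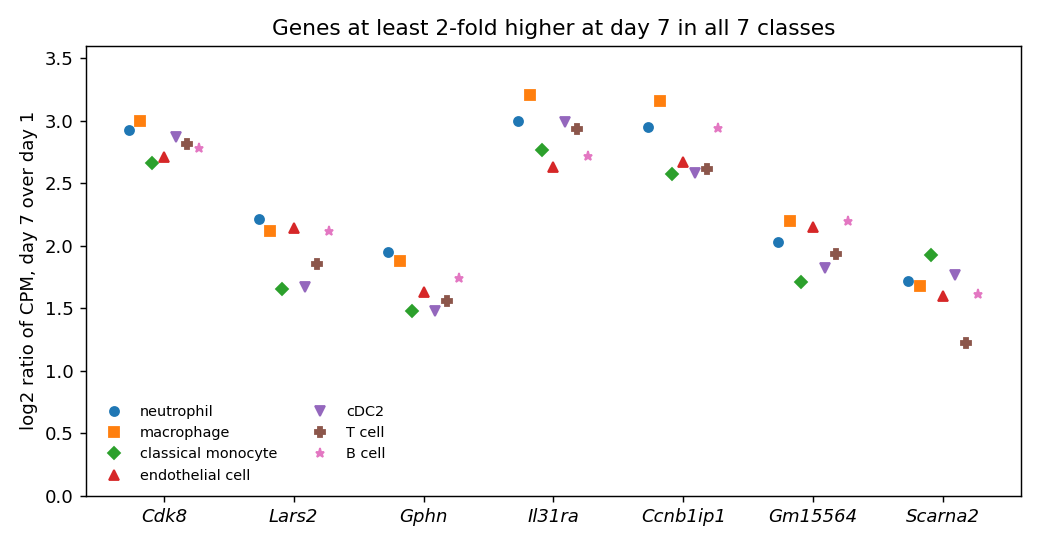
Log2 ratio of CPM, day 7 over day 1, of the 7 genes at least 2-fold higher in each of 7 classes; each symbol is a class. Cdk8 lies between 2.66 and 3.00 in all of them.

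Among the 10 lowest ratios over all cells, Chil3, a chitinase-like protein of myeloid cells, had 198 to 255 CPM by sublibrary at day 1 (median 215) and 11.3 to 20.6 at day 7 (median 15.3). Ace, a peptidase expressed by nonclassical monocytes, fell from 89.3 to 8.65 CPM. Crispld2 (52.7 to 3.10 CPM), Retnlg (84.5 to 7.01), Lcn2 (116 to 11.4), Slpi (100.2 to 13.9) and the interferon-inducible Slfn4 (336 to 31.5) fell with them. Among genes that rose, Plxdc2 went from 137 to 860 CPM, and Ciita, the master regulator of MHC class II, from 112 to 347. Mki67 (15.9 to 96.9 CPM) and Top2a (8.38 to 51.7), which mark dividing cells, rose over all cells. Mrc1, the mannose receptor, rose from 208 to 489 CPM.

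To separate the mixture of gated classes from change within them, the CPM of each class was averaged with the same class weights on both days. Equal class weights do not remove a change of mixture inside a class. Of the 76 genes called higher 39 (51.3%) were still at least 2-fold higher at equal shares, and of the 418 called lower 174 (41.6%) were still at least 2-fold lower. These ratios are not centred: the median over all tested genes was a log2 ratio of -0.33 over all cells and -0.36 at equal shares, which favours lower genes. The median of the 418 lower genes was -1.26 over all cells and -0.95 at equal shares, and that of the 76 higher genes 1.34 and 1.01. Crispld2 kept most of its decline (log2 ratio -4.08 over all cells and -3.66 at equal shares). That of Ace went from -3.37 to -1.45 and that of Mrc1 from 1.23 to 0.50, under the 2-fold line. For Il1b the values were -0.80 and -0.43, and for Cd44, an adhesion receptor, -0.91 and -0.28. Gate markers, among them Ace, Chil3 and Retnlg, were kept over all cells and at equal shares. The gate picks cells by detecting such genes, so it shapes their ratios at equal shares and enters the counts of 39 and 174.

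**Figure D3:**
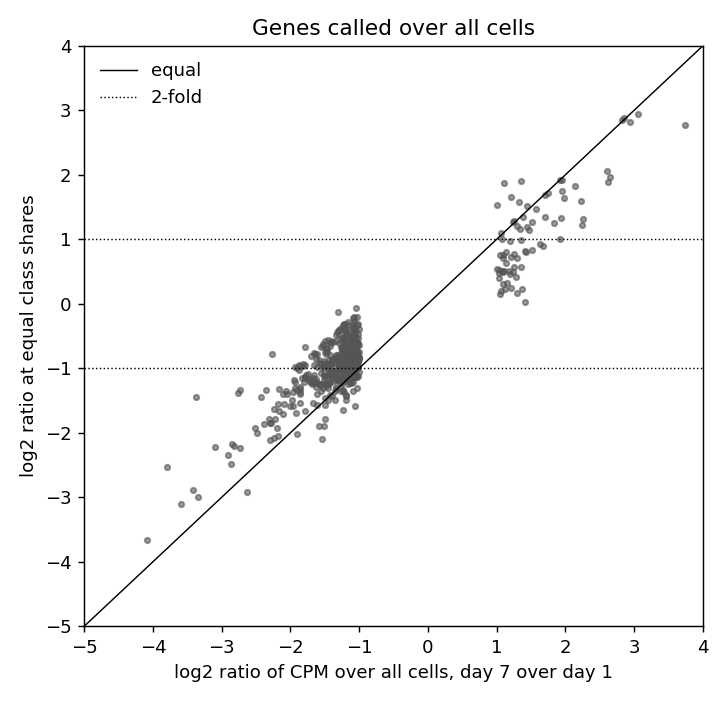
Log2 ratio of the 494 genes called over all cells (x axis) against the same ratio when both days are given equal class shares (y axis); the line marks equality and the dots the 2-fold limits. Points cluster nearer to 0 on the y axis than on the x axis.

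Neutrophil-gated cells that were present at day 7 carried a different transcriptome from those of day 1. Of 2818 tested genes 101 were called higher (3.58%) and 300 lower (10.6%), and 146 and 215 after centring. The median gene moved by only -0.17. Depth was 1659.5 counts per cell at day 1 and 1286.0 at day 7. The neutrophil gate list itself summed to 28477 CPM at day 1 and 12492 at day 7, with a median of 9 and 6 of its 12 markers per cell. The marker lists of the 10 other leukocyte classes stayed at a median of 0 or 1 marker per cell on both days. The classical monocyte list summed to 1783 CPM at day 1 and 1027 at day 7, and the nonclassical list to 2102 and 1405. Sums for the macrophage list were 432 and 493 CPM, and for the red cell list 82.4 and 4.17.

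Several genes of the hypoxia and glycolysis list rose in neutrophil-gated cells. Hilpda passed the filter only through day 7, so no count over the list is read. Vegfa, the endothelial growth factor, had 79.5 to 93.8 CPM by sublibrary at day 1 (median 85.3) and 252 to 436 at day 7 (median 326). The ranges did not overlap, and the relative log2 ratio was 2.09 (SD 0.27). Hk2, which starts glycolysis, rose from 62.8 to 213 CPM (relative log2 1.93), and Hilpda, a regulator of lipid droplets, from 36.1 to 133 CPM (2.05). Egln3, an oxygen-sensing hydroxylase, and P4ha1, a collagen prolyl hydroxylase, rose by 1.62 and 1.25 on the relative log2 scale. The neuronal-type glucose transporter Slc2a3 fell by 1.14 on the same scale. At an equal depth of 500 counts per cell Vegfa was seen in 3.41% of day 1 and 10.2% of day 7 neutrophil-gated cells. In B cells, which should lack it, it was in 0.38% at day 1 and in 0 of 173 cells at day 7, for which the exact 95% interval reaches 2.11%. Without thinning the neutrophil shares were 9.86% and 22.3%.

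Among the 10 highest ratios in neutrophil-gated cells were genes of varied function. Ikbke, a kinase upstream of NF-kappaB and interferon regulatory factors (chr1:131254343-131279606, mm10), had 47.9 to 75.9 CPM by sublibrary at day 1 and 432 to 642 at day 7, a relative log2 ratio of 3.28 (SD 0.25). F10, coagulation factor X, rose from 77.1 to 537 CPM, and Mreg, which acts in melanosome and lysosome transport, from 21.2 to 162 CPM. Fam20c, a kinase of secreted proteins, rose from 15.3 to 104 CPM and Dip2c from 45.6 to 255. Garin1a also ranked among the 10 largest gains at 20.1 and 96.5 CPM. In none of these 6 genes did the sublibraries of the days overlap.

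The cytokine genes did not move as one group. Il1a rose from 153 to 499 CPM (relative log2 1.88), Il23a, a subunit of interleukin 23, from 52.2 to 194 (2.07), and the chemokine Ccl3 from 113 to 241 (1.26). Nlrp3, the inflammasome sensor, was at 863 and 1636 CPM and the receptor antagonist Il1rn at 445 and 822, both called only after centring. Il1b stayed abundant at 11071 and 8921 CPM, a relative log2 ratio of -0.14. Cxcl2 (2865 and 3164 CPM) and Ptgs2, the inducible cyclooxygenase (1714 and 2189 CPM), had overlapping sublibraries. Among immediate early genes Egr2 (25.9 to 107 CPM), Egr3, Nr4a2 and Nr4a3 rose. Egr2 passed the filter only through day 7. No NF-kappaB subunit or inhibitor of 12 tested was called in either direction. Over all tested genes of the class 3.58% were called higher and 10.6% lower, or 5.18% and 7.63% after centring. Nothing is read from the count for this list.

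Several interferon-inducible genes fell in neutrophil-gated cells. Rsad2, an antiviral enzyme, had 101 to 207 CPM by sublibrary at day 1 (median 137) and 5.26 to 23.9 at day 7 (median 14.1), a relative log2 ratio of -3.03 (SD 0.68). Ifi204 (88.7 to 24.1 CPM), Ddx60 (109.5 to 25.7) and Oasl2 (226 to 82.4) also fell. Only 5 of the 18 members of the interferon list passed the filter on mean CPM. Rsad2, Ifi204 and Ddx60 were under 50 CPM at day 7 and passed only through day 1, so no count over the list is read. Outside the list Ifitm3, which blocks viral entry, fell from 193 to 19.9 CPM, Ifitm1 from 302 to 40.4 and Ifitm2 from 243 to 45.2; these neighbouring paralogs may share reads. Slfn4 had 1233 to 1463 CPM by sublibrary at day 1 and 96.5 to 206 at day 7, without overlap.

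The promoter windows of these genes are shown, with and without a match, because the genes fell in the same cells. RefSeq windows (GRCm38.p6, 250 bases before to 50 after the start) were found for 6 of 7 genes, namely Rsad2, Oasl2, Ddx60, Ifitm1, Ifitm2 and Ifitm3. The letters GAAA, any 2 bases and GAAA again, which spell the core of the interferon-stimulated response element, were searched on both strands. They occurred in 4 of the 6 windows, against 3.44% of 32851 windows, and in 6 of 13 windows of the whole interferon list. The 7 genes were chosen after their values were seen, and a match is not evidence of a bound site. Capitals mark the match.
Rsad2, chr12:26456403-26456702, minus strand: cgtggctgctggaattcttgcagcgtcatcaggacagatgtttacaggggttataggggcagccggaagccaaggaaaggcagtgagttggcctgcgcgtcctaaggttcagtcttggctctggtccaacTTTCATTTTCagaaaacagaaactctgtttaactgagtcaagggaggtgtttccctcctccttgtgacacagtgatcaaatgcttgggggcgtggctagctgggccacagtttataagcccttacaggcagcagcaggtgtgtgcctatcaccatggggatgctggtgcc
Oasl2, chr5:114896684-114896983, plus strand: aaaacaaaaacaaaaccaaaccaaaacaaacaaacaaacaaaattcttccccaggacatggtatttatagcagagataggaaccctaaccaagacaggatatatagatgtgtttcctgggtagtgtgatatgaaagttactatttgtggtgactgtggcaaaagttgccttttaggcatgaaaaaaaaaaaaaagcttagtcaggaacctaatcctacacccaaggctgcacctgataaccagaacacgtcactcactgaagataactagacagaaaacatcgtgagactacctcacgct
Ddx60, chr8:61927837-61928136, plus strand: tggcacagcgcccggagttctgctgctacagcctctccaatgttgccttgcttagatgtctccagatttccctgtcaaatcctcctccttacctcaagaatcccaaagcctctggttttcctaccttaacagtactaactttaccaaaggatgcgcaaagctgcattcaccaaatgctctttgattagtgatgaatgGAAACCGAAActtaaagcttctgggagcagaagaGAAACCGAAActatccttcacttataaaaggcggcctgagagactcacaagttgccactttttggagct
Ifitm1, chr7:140967826-140968125, plus strand: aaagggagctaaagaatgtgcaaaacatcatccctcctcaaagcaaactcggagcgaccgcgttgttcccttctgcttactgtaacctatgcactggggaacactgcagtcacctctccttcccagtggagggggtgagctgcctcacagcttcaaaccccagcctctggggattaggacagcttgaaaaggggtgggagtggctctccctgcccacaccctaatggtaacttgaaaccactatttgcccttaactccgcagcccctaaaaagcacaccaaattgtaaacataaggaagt
Ifitm2, chr7:140955912-140956211, minus strand: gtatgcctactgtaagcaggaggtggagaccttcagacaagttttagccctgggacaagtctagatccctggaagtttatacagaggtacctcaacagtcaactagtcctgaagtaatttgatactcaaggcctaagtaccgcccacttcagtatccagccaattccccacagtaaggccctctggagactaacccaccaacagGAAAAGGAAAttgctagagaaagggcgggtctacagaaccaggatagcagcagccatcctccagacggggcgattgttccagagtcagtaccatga
Ifitm3, chr7:141010695-141010994, minus strand: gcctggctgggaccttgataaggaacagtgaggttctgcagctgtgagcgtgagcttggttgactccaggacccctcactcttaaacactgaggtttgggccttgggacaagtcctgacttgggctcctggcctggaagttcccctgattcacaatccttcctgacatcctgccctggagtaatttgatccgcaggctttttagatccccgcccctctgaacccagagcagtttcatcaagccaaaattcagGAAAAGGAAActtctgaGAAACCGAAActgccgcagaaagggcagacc

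Other genes among the falls had varied functions. Lcn2, which sequesters bacterial siderophores, fell from 393 to 49.1 CPM, Slpi, a protease inhibitor, from 368 to 60.0, and Pglyrp1, a peptidoglycan-binding protein, from 170.3 to 29.8. Crispld2 (chr8:119992438-120052793, mm10) had 203 to 245 CPM by sublibrary at day 1 and 4.34 to 31.1 at day 7, the lowest relative log2 ratio of the class at -3.83. Ccnd3, a G1 cyclin, fell from 1576 to 250 CPM, and Gsdme, a pore-forming gasdermin, from 131 to 19.6. Ccnd3 was seen in 49.8% of day 1 and 10.96% of day 7 cells at equal depth.

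Itgal, the LFA-1 alpha chain, went from 466 to 128 CPM and Selplg, the ligand of selectins, from 444 to 135, while Icam1, the ligand that LFA-1 binds, rose from 256 to 544. Of 13 adhesion and homing genes 1 was called higher and 5 lower (4 after centring). In the SYK pathway list Fcer1g (441 to 134 CPM) and Tyrobp (595 to 210), the adaptors that couple receptors to SYK, fell, and Syk was at 1393 and 980 CPM. Of its 20 tested members 1 was called higher and 6 lower, but only 2 lower after centring. Bcl10, one of the 6, passed the filter only through day 1. Over all tested genes of the class 5.18% were called higher and 7.63% lower after centring, and nothing is read from the count. Alox5ap, which activates leukotriene synthesis, fell from 305 to 84.7 CPM and Ptgs1 rose from 37.9 to 99.8.

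Values that touch the neutrophil declines are the following. Actb, a gene all cells express, fell in neutrophil-gated cells from 4562 to 1352 CPM (relative log2 -1.59), in macrophages by 1.16, and was at -0.75 in classical monocytes and -0.76 in endothelial cells. Tubule transcripts also appeared in neutrophil-gated cells and fell there, Slc12a3 from 98.8 to 19.6 CPM with overlapping sublibraries and Pkhd1 from 106 to 21.5. Clu, a tubule injury gene, fell from 176 to 19.2 CPM. Kap, a proximal tubule transcript, was seen at equal depth in 2.03% of day 1 and 0.81% of day 7 neutrophil-gated cells, and in 1.91% and 0.58% of B cells. The 10% of genes with the shortest genomic span had a median relative log2 ratio of -0.14 and the 10% with the longest 0.09. The part of free RNA and of RNA quality in the neutrophil values was not tested.

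**Figure D4:**
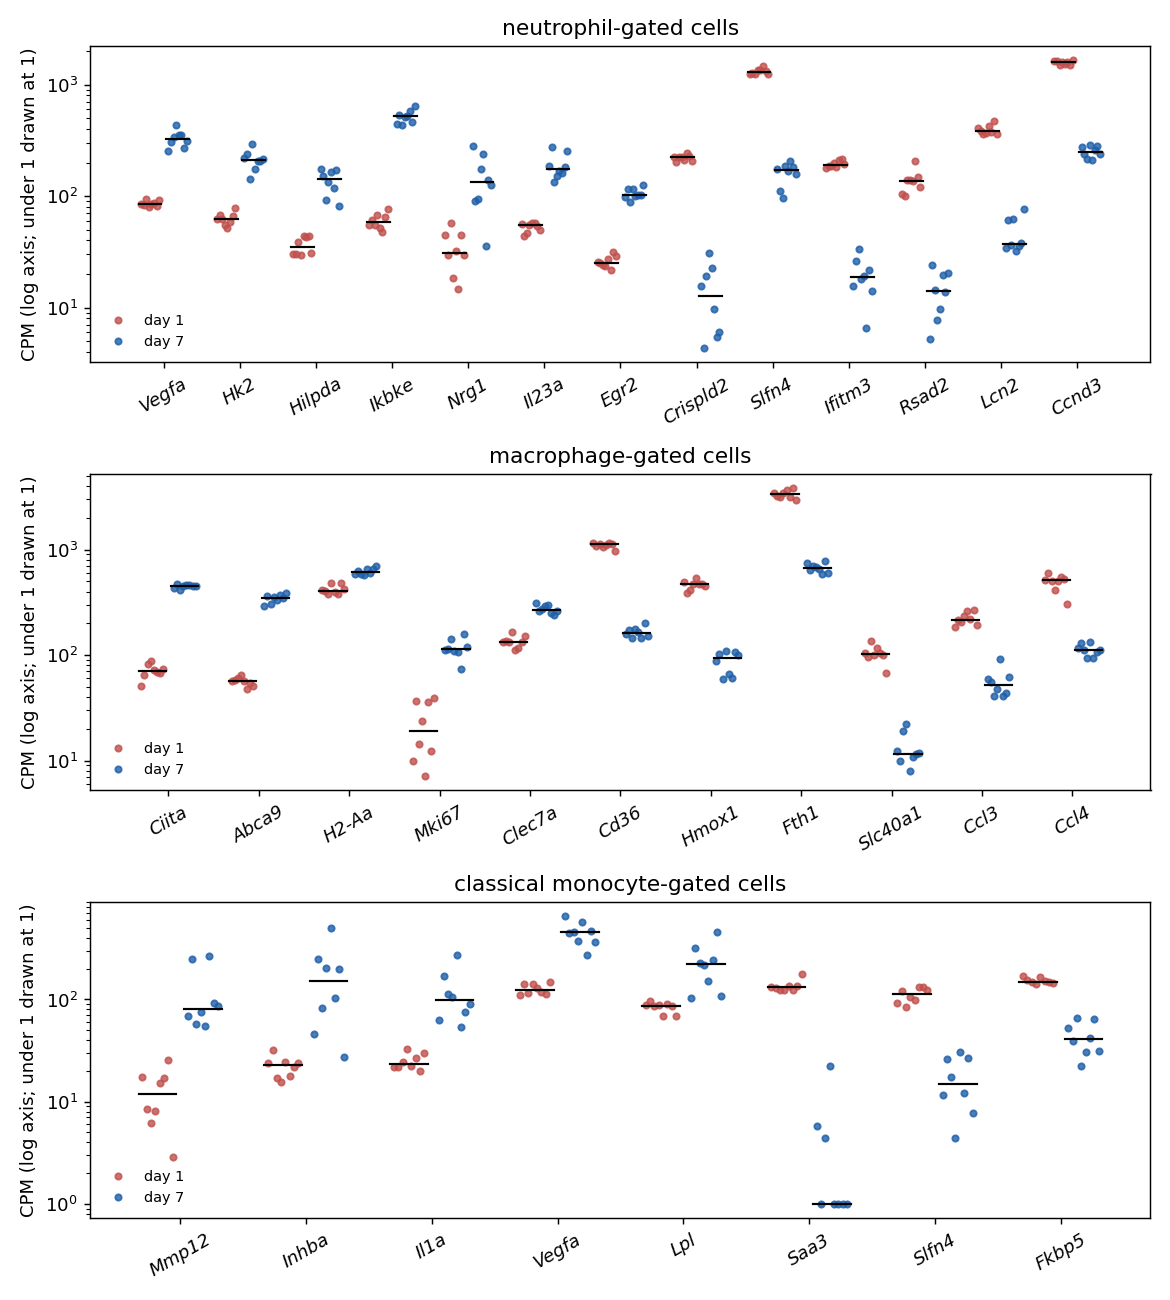
CPM (log axis) of named genes in neutrophil-gated, macrophage-gated and classical monocyte-gated cells at day 1 (red) and day 7 (blue); each point is a sublibrary, the bar is the median of 8, and values under 1 are drawn at 1. Vegfa, Hk2 and Ikbke points are higher and Crispld2, Slfn4 and Ccnd3 points lower at day 7 without overlap in neutrophils.

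In macrophage-gated cells Slc40a1, Cd36, Hmox1 and Fth1 fell and Ciita, Abca9 and Mki67 rose. Among them Slc40a1 passed the filter only through day 1 and Mki67 only through day 7. Of 3327 tested genes 42 were called higher (1.26%) and 392 lower (11.8%). Here the median gene moved by -0.45, and after centring 124 were called higher (3.73%) and 107 lower (3.22%). Depth was 4034.5 and 3867.5 counts per cell. The runner-up class was classical monocyte in 21.9% of macrophage-gated cells at day 1 and in 12.1% at day 7, and the monocyte gate list summed to 1254 and 911 CPM in them. The 10% of genes with the shortest span had a median relative log2 ratio of -0.20 and the 10% with the longest 0.15, against -0.25 and 0.16 in endothelial cells. The part of RNA quality in the falls of short genes was not tested.

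Slc40a1, ferroportin, the cell's iron exporter (chr1:45908068-45926523, mm10), had 67.1 to 137 CPM by sublibrary at day 1 (median 103) and 8.04 to 22.0 at day 7 (median 11.6). It had the lowest ratio of the class, a relative log2 of -2.51 (SD 0.49). Hmox1, which degrades haem, fell from 460 to 87.5 CPM (-1.95), close to the 69.6 CPM of the uninjured pool. Fth1, the ferritin heavy chain, had 2952 to 3809 CPM by sublibrary at day 1 and 591 to 777 at day 7 (-1.86), and the light chain Ftl1 fell from 2533 to 617 CPM (-1.59). Prdx1, a peroxidase of the antioxidant response, fell from 325 to 69.2 CPM. Ftl1 and Prdx1 were named after their values were seen. At equal depth Hmox1 was seen in 15.4% and 4.59% of macrophage-gated cells, and Fth1 in 70.8% and 26.1%. These genes were also lower in some other classes. The relative log2 ratio of Fth1 was -1.06 in cDC2, -0.87 in B cells, -0.72 in T cells, -0.36 in neutrophils, -0.16 in endothelial cells and -0.01 in classical monocytes. That of Ftl1 was -1.18 in B cells and -1.01 in T cells, and that of Prdx1 was -1.46 in B cells. Red cell transcripts, as the summed gate list of that class, stood at 43.0 and 3.59 CPM in macrophage-gated cells, and their part in these values was not tested.

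Scavenger and lipid genes split. Cd36, a scavenger receptor for oxidised lipid and apoptotic cells, fell from 1095 to 165 CPM, with 966 to 1149 by sublibrary at day 1 and 144 to 200 at day 7. Plin2, the lipid droplet coat, fell from 356 to 121 CPM. Apoe was at 908 and 1793 CPM and the cholesterol exporter Abcg1 at 71.4 and 114.5, the latter with overlapping sublibraries, and both were called higher only after centring. Of 14 lipid handling genes tested 0 were called higher and 8 lower, which became 2 and 2 after centring. The shares over all tested genes of the class were 1.26% higher and 11.8% lower, and 3.73% and 3.22% after centring. Abca9, a transporter of the same family as the lipid exporters, rose from 56.8 to 344 CPM (relative log2 3.05) and was at 516 in the uninjured pool.

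Of 7 tested genes of the MHC class II list 2 were called higher, and 5 after centring, with a list median of 1.19. Over all tested macrophage genes 1.26% were called higher, and 3.73% after centring. Ciita (chr16:10480059-10528418, mm10) had 50.6 to 87.6 CPM by sublibrary at day 1 (median 70.7) and 411 to 469 at day 7 (median 452), without overlap, a relative log2 ratio of 3.10 (SD 0.25). In the uninjured pool it was at 725 CPM. H2-DMb1, a peptide editor, rose from 53.2 to 121 CPM. H2-Aa (419 and 621 CPM), H2-Ab1 (507 and 901) and H2-Eb1 (614 and 1026), the chains of the class II molecule, did not reach 2-fold in CPM but were called higher after centring, and their sublibraries did not overlap. At equal depth Ciita was seen in 3.11% of day 1 and 17.9% of day 7 macrophage-gated cells. B cells and dendritic cells also carry class II genes. In macrophage-gated cells the B cell marker list summed to 99.2 CPM at day 1 and 198.5 at day 7, the cDC2 list to 267 and 302 and the cDC1 list to 1557 and 940, with a median of 0 B cell markers per cell on both days. In endothelial-gated cells the 5 tested members of the list had a median of 1.18, with 0 called before or after centring. There 0.36% of all tested genes were called higher, and 0.664% after centring, so nothing is read from the 0. Their sublibraries overlapped for H2-Aa, H2-Ab1, H2-Eb1 and Cd74. In T cells, which lack these transcripts as a rule, H2-Eb1 was at 1.29 and H2-Ab1 at 1.17, not called. The levels there were low, with H2-Eb1 at 44.8 and 82.0 CPM in T cells. The part of other cells and of free RNA in the class II values was not tested.

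Ccl4, a chemokine for monocytes and T cells, had 303 to 597 CPM by sublibrary at day 1 and 92.9 to 134 at day 7 (relative log2 -1.67). Ccl3 fell from 221 to 55.3 CPM and Tnf from 139 to 47.0. When each gene was centred on genes of like span, an alternative chosen after seeing the data, Tnf (-0.91) was no longer called, and neither were Aldoa (-0.95), Actb (-0.96) and Cdkn1a (-0.84). Ccl2 (192 and 79.0 CPM), Ccl7 (107 and 41.6), Ccl9 (222 and 106) and Cxcl2 (701 and 269) were called lower in CPM but not after centring, and Ccl7 passed the filter only through day 1. Il1b was at 1694 and 913 CPM (-0.45), Nlrp3 at 262 and 199 (0.05) and Cd86 at 1009 and 718 (-0.05).

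Tgfbi, a secreted matrix adaptor, fell from 1443 to 341 CPM, Spp1, osteopontin, from 898 to 261, Mmp12, the macrophage elastase, from 498 to 149 and Plau, urokinase, from 495 to 147. Spp1 also fell in other classes, with a relative log2 ratio of -1.34 in macrophages, -1.78 in neutrophils, -1.81 in endothelial cells and -2.28 in B cells. The part of free RNA in these values was not tested. Of 11 matrix genes tested 6 were called lower (11.8% over all tested genes) and 5 after centring (3.22% over all). Ecm1 (109 to 19.1 CPM), Adam8, a membrane protease (344 to 62.0), Pdlim7 (128 to 21.7), Cdk18 (86.7 to 15.1) and the stress kinase Plk3 (194 to 41.2) were also among the 10 largest falls. The glycolytic enzymes Gapdh, Pkm and Aldoa fell by 1.34, 1.18 and 1.15 on the relative log2 scale, while Hk2 was not among the calls.

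Mki67, present in dividing cells, had 7.16 to 39.1 CPM by sublibrary at day 1 and 73.7 to 158 at day 7, and Ccnd3 rose from 73.1 to 172 CPM while Ccnd1 fell from 440 to 81.4. Clec7a, the beta-glucan receptor dectin-1 that signals through SYK, rose from 136 to 275 CPM (relative log2 1.47), 1 of 20 tested SYK pathway members, where 3.73% of all tested genes were called higher after centring, and nothing is read from that count. Syk itself was at 428 and 456 CPM with overlapping sublibraries. Mrc1 was at 669 and 885 CPM, a relative log2 ratio of 0.85 that was not called. Plxdc2 (353 to 1526 CPM) and Crebrf (25.9 to 99.6) rose too.

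**Figure D5:**
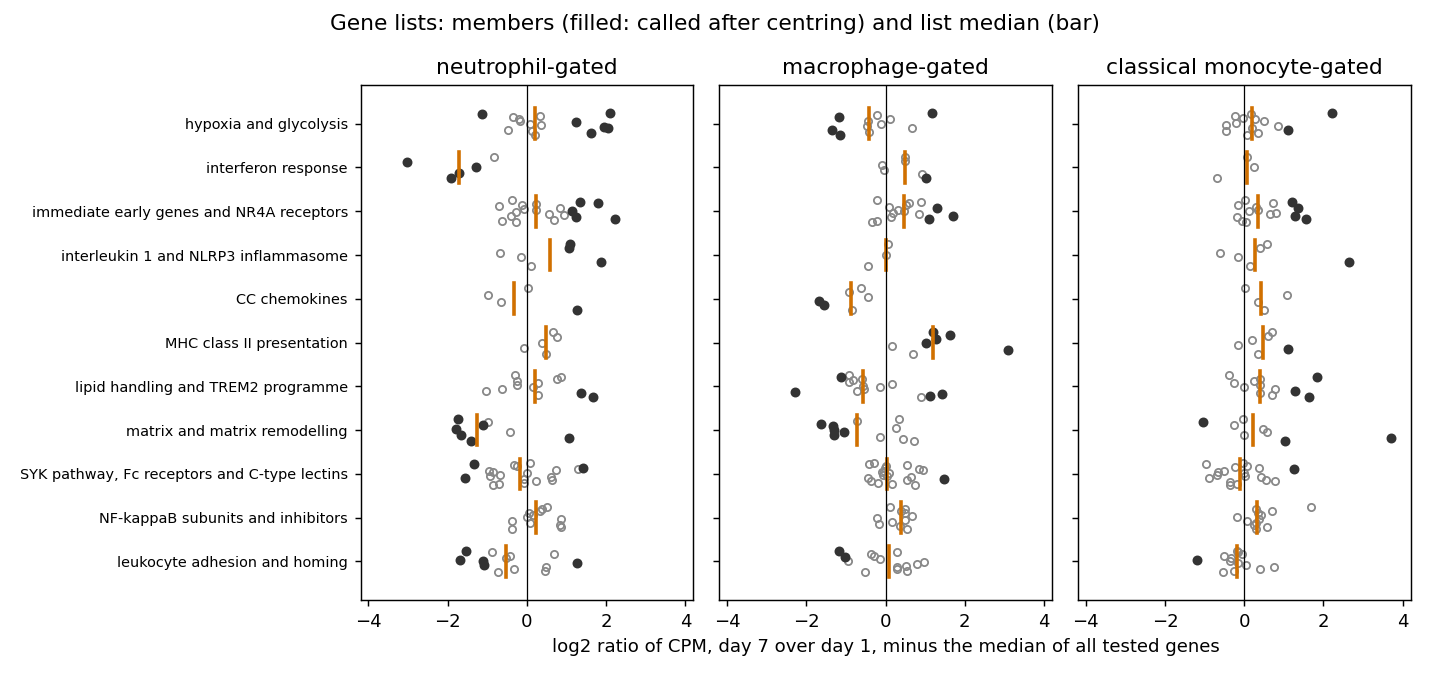
Relative log2 ratio, day 7 over day 1, of every tested member of 11 gene lists in neutrophil-gated, macrophage-gated and classical monocyte-gated cells; filled points were called after centring and the bar is the list median. The class II list sits at a median of 1.19 in macrophages.

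Classical monocyte-gated cells numbered 4353 at day 1 and only 360 at day 7. Of 3068 tested genes 37 were called higher (1.21%) and 166 lower (5.41%), and 91 (2.97%) and 38 (1.24%) after centring, with a median gene at -0.42. The direction of the split thus turned with the centring. At day 7 15.8% of these cells were placed as macrophage or cDC2 by profile, against 4.64% at day 1. The part of such cells in the values below was not tested.

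Mmp12, the macrophage elastase, was the gene with the highest ratio. It had 2.89 to 25.5 CPM by sublibrary at day 1 (median 11.8) and 54.8 to 265 at day 7 (median 80.6). These ranges did not overlap, and the relative log2 ratio was 3.70 (SD 1.24). Inhba, an activin subunit, rose from 22.1 to 168 CPM, but with 27.2 to 506 CPM by sublibrary at day 7 the days overlapped. Il1a rose from 25.2 to 117 CPM (2.64), Nrg1, an epidermal growth factor family ligand, from 191 to 715 (2.32) and Vegfa from 129 to 445 (2.21). Fgf13 (39.8 to 164 CPM) and Plxdc2 (72.6 to 383) rose as well. The 10 highest ratios also held Il31ra, Cdk8, Ccnb1ip1 and Scarna2, which rose in every class and are described above, and Rpph1, which overlaps Ccnb1ip1. Nrg1, also called in neutrophils, was chosen after its values were seen.

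Lipid and clearance genes were among those that rose in the same cells. Axl, a receptor for apoptotic cells, rose from 30.6 to 94.1 CPM (relative log2 2.04). Lpl, lipoprotein lipase, rose from 84.6 to 226 CPM and the cholesterol exporter Abca1 from 323 to 748. These are 2 of 12 lipid handling genes (3 after centring). Over all tested genes of the class 1.21% were called higher, and 2.97% after centring. Egr1 rose from 58.3 to 129 CPM. Vdr (39.6 to 113 CPM) and Nt5e, the CD73 ectoenzyme (51.9 to 161), chosen after their values were seen, also rose.

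Among the genes that fell, Saa3, an acute-phase serum amyloid, had 124 to 177 CPM by sublibrary at day 1 and 0 to 22.2 at day 7 with a median of 0, the lowest ratio of the class. Slfn4 fell from 111 to 16.6 CPM, S100a9 from 85.8 to 16.0 and Il1r2, the decoy interleukin 1 receptor, from 380 to 107. Adgre4 (171 to 33.8 CPM), Ms4a6d (168 to 45.5) and the glucocorticoid-induced Fkbp5 (153 to 43.0) fell as well. The neutrophil marker list in these cells went from a median of 3 to 1 markers per cell and from 1499 to 672 CPM, and S100a9 also fell in B cells, from 113 to 27.4 CPM. The nonclassical monocyte list, which holds Adgre4, summed to 843 and 426 CPM in classical monocyte-gated cells, with a median of 1 marker per cell on both days. The part of neutrophil RNA and of nonclassical monocytes in these falls was not tested. Abcg3 (129 to 36.3) and Htr7 (130.1 to 36.9) were among the 10 lowest, and Adgrl3 (86.1 and 22.8) was called in CPM but not after centring. Il1b was at 1839 and 1239 CPM (-0.15), and Itgal fell from 258 to 84.9. The fall of Fkbp5 was not particular to this class. Its log2 ratio was -1.39 over all cells and -1.42 at equal class shares. Fkbp5 was also called lower in neutrophils, macrophages and endothelial cells, and of these only neutrophils kept the call after centring.

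The calls of the 3 myeloid classes overlapped in part. Of the 101 genes called higher in neutrophils 79 were tested in classical monocytes and 77 in macrophages, where 1.21% and 1.26% of all tested genes were called higher. Of the 101, 20 (19.8%) were also called higher in classical monocytes, where they were 54.1% of 37. With macrophages the shared number was 13, or 12.9% of the neutrophil and 31.0% of the macrophage calls. Another 10 of the 101 were called lower in macrophages. Of all genes tested there 11.8% were called lower, and nothing is read from the 10. In each of these pairs 7 of the shared genes were those at least 2-fold higher in every class. Of the 300 lower genes in neutrophils 194 were tested and 62 (20.7%) lower in classical monocytes, where they made up 37.3% of 166. Of all genes tested there 5.41% were called lower. In macrophages 186 of the 300 were tested and 44 (14.7% of the 300) called lower. Of all genes tested in that class 11.8% were called lower. The percentages of the called genes of a class also count genes not tested in the other class. They are thus lower than percentages of the tested ones would be, and not on the same base as the shares over all tested genes. Some genes moved in opposite directions. Ccl3 rose in neutrophils (relative log2 1.26) and fell in macrophages (-1.55), while Ccnd3 fell in neutrophils (-2.49) and rose in macrophages (1.68). Mmp12 rose in classical monocytes (3.70) and fell in macrophages (-1.30). These differences were in all 8 sublibraries and were not tested between mice.

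Endothelial-gated cells, 1298 at day 1 and 214 at day 7, were added after the data were seen because they hold fewer cells. Of 3613 tested genes 13 were called higher (0.36%) and 85 lower (2.35%), or 24 (0.664%) and 35 (0.969%) after centring. Angpt2, an angiopoietin released by activated endothelium, had 79.8 to 193 CPM by sublibrary at day 1 and 0 to 36.9 at day 7, a relative log2 ratio of -3.38 (SD 1.47). Apln, a tip cell peptide, fell from 104 to 17.2 CPM with overlapping sublibraries and was not called with like-span centring, and Inhbb, an activin subunit, from 220 to 41.5. The basement membrane collagens Col4a1 (2158 to 832 CPM) and Col4a2 (1936 to 731) and Sparc (1769 to 636), a collagen-binding protein, fell by 1.13, 1.16 and 1.23 on the relative log2 scale. At day 7 the collagens were near the 937 and 773 CPM of the uninjured pool. The muscarinic receptor gene Chrm3 rose from 907 to 2054 CPM.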

How the data were processed

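Live, scatter-enriched cells were barcoded with Evercode WT v2 chemistry in 8 sublibraries. Per the labels and methods, the authors processed reads with the Parse pipeline v1.1 against mm10; the annotation release is not given in the sources used here. The deposited matrix holds transcript counts per cell and gene. The deposited cell table gives the condition of each barcode, its counts and its number of genes, and both equalled the matrix sums for all 120281 barcodes. Of the barcode combinations of the 2 conditions 4521 occurred in more than 1 sublibrary, and none was repeated within one. No mapping from conditions to separate animals was used, so a condition is 1 sample.

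Counts were summed per class and sublibrary with Python 3.11.15, numpy 2.4.6 and scipy 1.17.1. Genes needed a mean of 20 CPM over all cells or 50 CPM within a class, and the gate markers of a class were left out of its test. The SD is that of the sublibrary log2 ratios with 0.5 counts added. Sums were tested on simulated data. Named genes were the 10 highest and 10 lowest called ratios per comparison, without ribosomal, mitochondrial and unnamed genes, plus members of 20 gene lists and 10 genes of interest to the study; others are marked in the text. Cells with a share of simulated doublets above 0.7 among 30 neighbours (5.38% at day 1, 4.94% at day 7) were kept, and removed in an alternative. TMM factors came from edgeR 4.0.16. Gene spans and positions came from GENCODE M21, matched by gene ID for 52029 of 57010 genes, and promoters from RefSeq. Thinning drew 500 counts per cell, leaving out 0 day 1 and 38 day 7 cells. The comparison, the gene lists, the marker scoring rule and the named genes were chosen with earlier results of these data known. Alternatives were other limits on cells, another gate, profile placement, other scalings and filters, and leaving out each sublibrary. Some results are not reported here.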

Additional observations from a re-analysis of the deposited data

Results flagged for a closer look

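In 26 sets of 8 sublibrary shares, 2 held a sublibrary far from the rest, where chance alone gives about 1 in 20. The lowest cDC2 share at day 7 was 3.09% against a median of 4.78%, in sublibrary 6. The highest tubule share at day 1 was 3.21% against a median of 2.01%, in sublibrary 2. The ratio of neither class changed direction when a sublibrary was left out.

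By CPM alone, 17 genes were called in opposite directions in a pair of the 3 myeloid classes, each with all 8 sublibraries on one side. After leaving out unnamed genes, 8 of them were also called in opposite directions after centring and are given here. None of these differences was tested. Between neutrophil-gated and macrophage-gated cells the relative log2 ratios were 1.26 and -1.55 for Ccl3, and -1.22 and 1.57 for Cd33, a sialic acid-binding lectin. They were 1.75 and -1.05 for Cdkn1a, a cell cycle inhibitor, 1.19 and -1.22 for Nop58, a nucleolar protein, and -2.49 and 1.68 for Ccnd3. Centred on genes of like span, an alternative chosen after seeing the data, Cdkn1a was at -0.84 in macrophage-gated cells and no longer called. Between classical monocyte-gated and macrophage-gated cells they were 1.64 and -1.12 for Ccnd2, and 3.70 and -1.30 for Mmp12. Nt5e was at -1.17 in neutrophil-gated and 2.06 in classical monocyte-gated cells.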

How the results depend on the processing

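Every share of the 4 main classes kept its direction in each alternative run. With more than 500 genes per cell the log2 share ratio was -0.70 for neutrophils, -1.56 for classical monocytes and 1.43 for macrophages. With 1 more marker it was -0.51 for neutrophils and -2.32 for classical monocytes. Placed by profile it was -1.04 for classical monocytes and 1.49 for macrophages. With gates on 500 counts per cell it was -0.66, -2.83 and 0.45 for neutrophils, classical monocytes and macrophages. Tubule cells turned to -0.50 by profile and Ccr7 dendritic cells to -0.77 on 500 counts; their sublibraries overlapped in the main setting. Leaving out a sublibrary gave -0.42 to -0.37 for neutrophils, -1.74 to -1.70 for classical monocytes, 1.27 to 1.30 for macrophages and -0.80 to -0.67 for endothelial cells.

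Counts of called genes depended on the scaling. With TMM they were 133 higher and 239 lower over all cells, 106 and 135 in macrophages and 78 and 47 in classical monocytes. With no filter beyond 10 counts they were 683 and 1018, 690 and 664 in neutrophils, 405 and 1372 in macrophages, and 719 and 407 in classical monocytes. Without mitochondrial genes and the 7 genes higher in every class in the total, 121 were higher over all cells, 72 higher in macrophages and 99 lower in classical monocytes. Profile placement gave 263 lower in classical monocytes. Leaving out a sublibrary gave 75 to 79 higher and 414 to 426 lower over all cells, 101 to 106 and 299 to 308 in neutrophils, 39 to 44 and 382 to 402 in macrophages, and 37 to 43 and 163 to 182 in classical monocytes. No named called gene changed direction. Cells under 10% mitochondrial counts gave 81 higher and 415 lower over all cells, 118 and 286 in neutrophils, 42 and 386 in macrophages and 38 and 162 in classical monocytes. This limit and the totals without the 7 genes were tried after seeing the data. No paired analysis was possible because each condition is 1 pool and the result comes from no test; sublibraries are shared by both days.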
